A study of Mus musculus with 14 samples.

Results

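The genes described here are 10 components of the WNT pathway at or near the cell surface: the R-spondin receptors *Lgr4*, *Lgr5* and *Lgr6*, the WNT co-receptors *Lrp5* and *Lrp6*, the secreted factors *Dkk3* and *Sfrp1*, and the feedback inhibitors *Axin2*, *Znrf3* and *Rnf43*. They were taken by gene symbol from the 54332 genes of an RNA-seq time course. All 10 averaged 1 TPM or more over the libraries and so were among the 13110 genes tested, *Lgr5* only through its level at W6. TPM (transcript abundance relative to a fixed total) is a level scaled for transcript length, so levels of different genes may be set side by side, and the sequencing depth behind a value is unknown.

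The RNA came from epidermal stem cells (EpdSCs), which maintain the skin surface between hair follicles, sorted from the back skin of male CD1 mice of the genotype K14rtTA; TRE-myc-Sox9. In these mice the *Krt14* promoter drives rtTA in basal keratinocytes, and DOX then switches on a MYC-tagged *Sox9* transgene. The 10 libraries fall into 5 timepoints of 2 replicates: D0 (P21, before DOX), W1 (P28), W2 (P35), W6 (P63) and W12. At every timepoint the cells were sorted as negative for CD31, CD45, CD117 and CD140a, high for CD49f, negative for CD34 and high for Ly6A. The W12 cells came from newborn skin of these mice grafted onto immunocompromised Nude hosts, which were female, so grafting and the longer induction cannot be told apart, and age rose with induction from D0 to W6. All groups carry both transgenes, and RNA of age-matched mice without *TRE-myc-Sox9* was not analysed here.

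WNT proteins bind a Frizzled receptor together with LRP5 or LRP6, which stabilizes β-catenin and lets it act with TCF/LEF factors on target genes. ZNRF3 and RNF43 are E3 ubiquitin ligases that remove Frizzled receptors from the membrane, and R-spondins, by binding LGR4, LGR5 or LGR6 together with these ligases, clear the ligases and so raise the sensitivity of a cell to WNT. In skin, LGR5 is known as a marker of stem cells in the lower hair follicle and LGR6 of cells in the upper follicle and epidermis, while *Axin2*, *Lgr5*, *Znrf3* and *Rnf43* are known as genes that WNT signalling itself induces in many tissues.

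Several libraries stood apart. MYC-SOX9 was listed at 89.6 and 45.6 TPM at D0 and between 606 and 3414 TPM in the 8 libraries after DOX. The second D0 library carried a male label but had 4.61 TPM of *Xist* and 0.0278 TPM of *Ddx3y*, which is on the Y chromosome, and the summed level of 18 immediate-early and stress genes was 35323 and 57941 TPM at D0 against 6961 to 15288 TPM in every later library. In W6 replicate 2 the fibroblast gene *Dcn* stood at 51.2 TPM against 1.46 TPM in replicate 1, and it was at 13.2 and 27.2 TPM at W12 against 0.103 to 2.06 TPM from D0 to W2. In W6 replicate 2 *Col1a1* was at 0.14 TPM and *Lum* at 0.04 TPM. Both W12 libraries held *Xist* (5.51 and 3.50 TPM) beside *Ddx3y* (11.0 and 12.9 TPM), and their 5 endothelial markers summed to 57.0 and 124 TPM against 0.0598 to 1.64 TPM in all earlier libraries. *Cd74*, the one of 6 immune markers that passed the filter, was at 102 and 124 TPM at W12 against 2.09 to 26.4 TPM earlier, while *Ptprc*, which encodes the CD45 of the sort, was at most 0.327 TPM. Of 6 basal keratinocyte markers, *Krt14* stood between 19997 and 37666 TPM, but 5 were lower than at D0 at W6 (median of the 6 on the log2 scale −1.11, of all genes 0.08) and 4 at W12 (−1.34 and −0.08), where 14.1% and 25.1% of all genes were lower. One of them, the hemidesmosome gene *Col17a1*, was at 686 and 1083 TPM at D0, 217 and 320 TPM at W6, and 224 and 283 TPM at W12. In sorted cells measured in bulk, fewer cells of a type and less RNA per cell cannot be told apart.

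**Figure D1:**
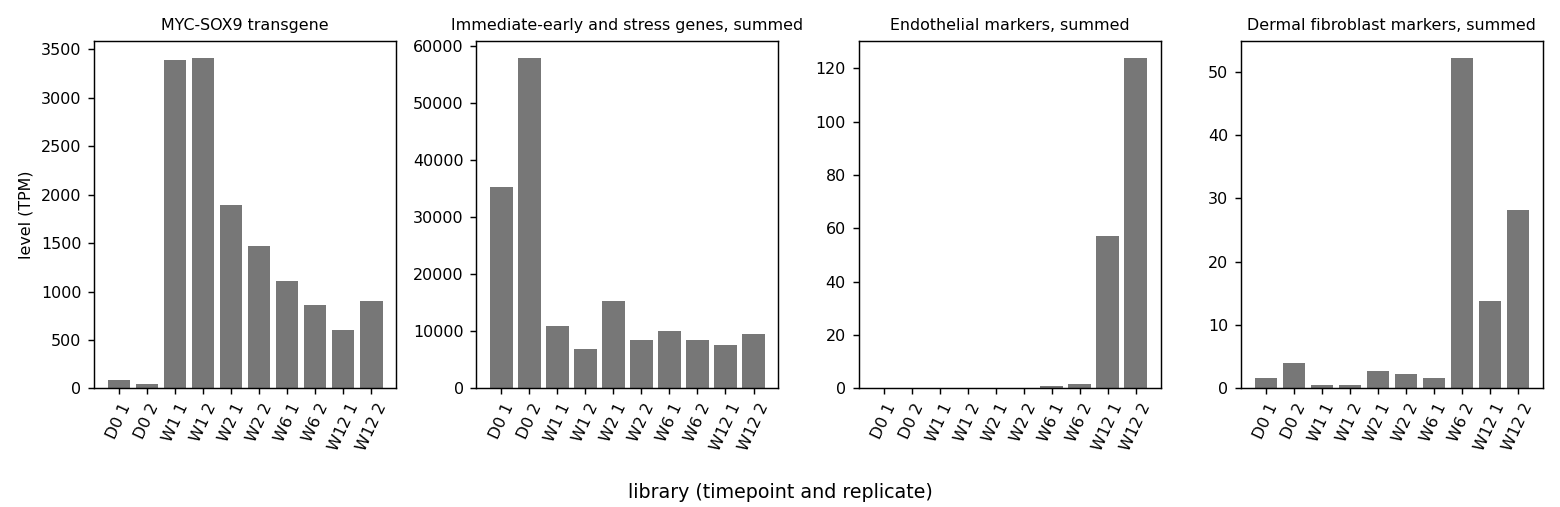
Level in TPM, for each of the 10 libraries on the horizontal axis, of the MYC-SOX9 transgene and of the summed immediate-early and stress genes, endothelial markers and dermal fibroblast markers, each on its own vertical axis. The immediate-early sum is highest in the D0 libraries, the endothelial sum is 57.0 and 124 TPM at W12, and the fibroblast sum of 52.2 TPM in W6 replicate 2 is almost wholly *Dcn*.

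*Lgr4*, *Lrp6* and *Dkk3* were higher than at D0 at W1, *Dkk3* by the most, where 5.79% of all genes were, and without either W1 library only *Dkk3* was called. *Axin2*, *Znrf3* and *Rnf43* did not pass the test in either direction until W6. All 3 were then lower than at D0, where 14.1% of all genes were, a result that was lost for each without D0 replicate 2. At W12, 7 of the 10 genes were lower than at D0 and *Dkk3* alone was higher, where 25.1% of all genes tested were lower and 17.9% higher, and 4 of the 10 were lower without D0 replicate 2 or W12 replicate 1. Over all induced timepoints together, 8 of the 10 genes differed from D0 by limma's F test at an adjusted p under 0.05, all but *Lgr5* and *Sfrp1*, where 57.5% of all genes tested did so. Of the 25 changes called among 7 comparisons, 6 were called under every one of the 20 alternative fits tried, and also met an absolute log2 change of at least 1, a setting not counted among the 20: the rise of *Lgr4* at W2, its fall from W6 to W12, and the falls of *Lrp5*, *Axin2*, *Znrf3* and *Rnf43* from D0 to W12.

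**Figure D2:**
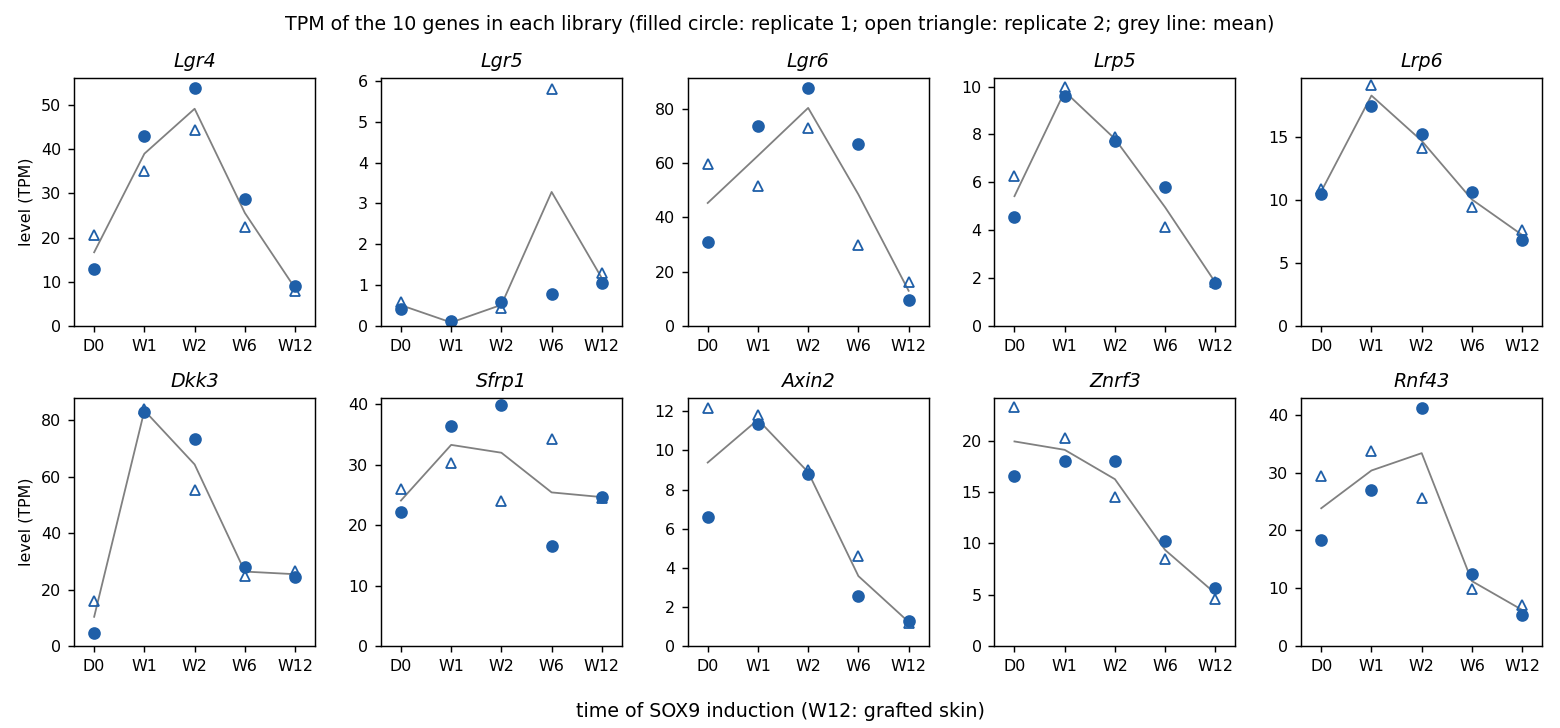
Level in TPM (vertical axes, from 0, each gene on its own scale) of the 10 genes at D0, W1, W2, W6 and W12 (horizontal axes), with replicate 1 as a filled circle, replicate 2 as an open triangle and the mean of both as a grey line. *Lgr4*, *Lrp5*, *Lrp6* and *Dkk3* peak at W1 or W2, the feedback inhibitors are lowest at W12, and *Lgr5* is high in W6 replicate 2 alone (5.80 TPM).

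*Lgr4*, the most widely expressed of the R-spondin receptors, lies at chr2:109917647-110014257 (GRCm38, plus strand). It was listed at 12.8 and 20.6 TPM at D0, 42.9 and 35.1 TPM at W1, 53.9 and 44.4 TPM at W2, 28.8 and 22.3 TPM at W6, and 9.09 and 7.96 TPM at W12. Every library of W1, W2 and W6 was thus above both D0 libraries and both W12 libraries were below them. Against D0 the level was 2.31-fold higher at W1 (log2 change 1.21 ± 0.24 SE, adjusted p = 0.0162) and 2.90-fold higher at W2 (log2 1.54 ± 0.24, adjusted p = 0.00418), with folds and log2 changes taken on TPM + 1 here and throughout. From that peak it fell by 0.92 to W6 and by a further 1.47 to W12 on the log2 scale (adjusted p = 0.0374 and 0.00515), where it was 1.81-fold lower than at D0 (log2 −0.86 ± 0.24, adjusted p = 0.0203). In the order W2, W1, W6, D0, W12, neighbours did not differ by the test except D0 and W12.

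The rise of *Lgr4* at W1 was not called without W1 replicate 1 (log2 1.07, adjusted p = 0.107) or W1 replicate 2 (1.35, adjusted p = 0.0688). Its fall below D0 at W12 was not called without D0 replicate 2 (−0.54, adjusted p = 0.119), W12 replicate 1 (−0.94, 0.0656) or W12 replicate 2 (−0.77, 0.108), nor with a correction for transcript length (−0.47, 0.131) or quantile normalization (−0.66, 0.0647). The W2 to W6 step was lost without W2 replicate 1 (−0.78, 0.215), W2 replicate 2 (−1.06, 0.116) or W6 replicate 2 (−0.74, 0.147), and without either library of W1 or W12 (adjusted p between 0.059 and 0.0642), and with the length correction (−0.77, 0.0503). At W6 the gene did not pass against D0 (log2 0.61, adjusted p = 0.0832), but did without D0 replicate 2 (0.94, 0.0295).

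*Lgr6* lies at chr1:134983301-135105276 (minus strand) and was the most abundant LGR gene in all 10 libraries. Its levels were 30.9 and 59.6 TPM at D0, 73.7 and 51.6 TPM at W1, 87.5 and 73.0 TPM at W2, 66.8 and 30.0 TPM at W6, and 9.57 and 16.3 TPM at W12. Both W2 libraries were above the D0 range and both W12 libraries below it, while the W6 libraries lay on either side of it. The W2 level did not pass against D0 (log2 0.88 ± 0.43, adjusted p = 0.201), nor did the W1 level (0.51, adjusted p = 0.504), whereas at W12 *Lgr6* was 3.25-fold lower than at D0 (log2 −1.70 ± 0.43, adjusted p = 0.013) and 3.39-fold lower than at W6 (adjusted p = 0.0234). Without D0 replicate 2 the W12 change was −1.24 (adjusted p = 0.0932) and without W12 replicate 1 it was −1.35 (0.0992). The fall from W6 was not called without W6 replicate 1 (−1.20, 0.113) or W12 replicate 1 (−1.41, 0.169), and without W12 replicate 2 it was at the threshold (−2.12, 0.05).

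*Lgr5*, on the minus strand at chr10:115450311-115587780, stayed low and overlaps *A930009A15Rik* on the other strand. It was listed at 0.423 and 0.593 TPM at D0, 0.122 and 0.0455 TPM at W1, 0.581 and 0.449 TPM at W2, 0.769 and 5.80 TPM at W6, and 1.04 and 1.30 TPM at W12. The W6 replicates thus lay far apart, and both W12 libraries were above both D0 libraries. No comparison with D0 passed the test (W6: log2 1.20 ± 0.51, adjusted p = 0.103). The mean of *Lgr5* was 1.11 TPM over the 10 libraries and below 1 TPM over the 8 libraries outside W6, so it passed the filter through the timepoint where it was highest, and no test of W6 as higher is given as support. W6 replicate 2 was also the library in which *Dcn* stood at 51.2 TPM, the WNT inhibitor *Wif1* at 33.8 TPM against 1.03 TPM in replicate 1, and *Notum*, an enzyme that inactivates WNT and is itself a target gene, at 10.9 against 0.58 TPM. Their part in the *Lgr5* value was not tested.

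Because TPM are per length, the LGR genes can be compared within a library. *Lgr6* made up 70.0 and 73.8% of the summed LGR level at D0, 63.1 and 59.5% at W1, 61.6 and 61.9% at W2, 69.3 and 51.6% at W6, and 48.6 and 63.8% at W12. Its share was highest in the D0 libraries, and *Lgr4* took most of the remainder, with 29.0 and 25.5% at D0 and 38.0 and 37.7% at W2. *Lgr5* held at most 0.959% of the sum in the libraries from D0 to W2, 9.98% in W6 replicate 2 and 5.29 and 5.07% at W12. The sum itself went from 44.1 and 80.8 TPM at D0 to 142 and 118 TPM at W2, then down to 19.7 and 25.5 TPM in the W12 libraries. These shares were not tested. Of 5 markers of upper follicle cells, 4 were higher than at D0 at W2 and 4 were lower at W12 than at W6 (medians of the 5 on the log2 scale 1.78 and −2.31), where 9.06% and 13.5% of all genes were. Without any 1 library of D0, W2 or W12 the W2 count was 2, and without W12 replicate 1 the W12 count was 2. From D0 to W12, 1 of the 5 was called higher and 1 lower (median log2 change −0.21), where 17.9% and 25.1% of all genes were. One of them, *Lrig1*, was at 57.3 and 75 TPM at D0, then 242 and 215 TPM in the W2 libraries, and 11.7 and 13.7 TPM in those of W12. The 5 markers did not move together. *Krt17* rose from 1147 and 1430 TPM at D0 to 3309 and 4545 TPM in the W12 pair. *Plet1* had already fallen by W2, to 132 and 112 TPM from 258 and 269 TPM before DOX. The part of these cells in the LGR levels was not tested.

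**Figure D3:**
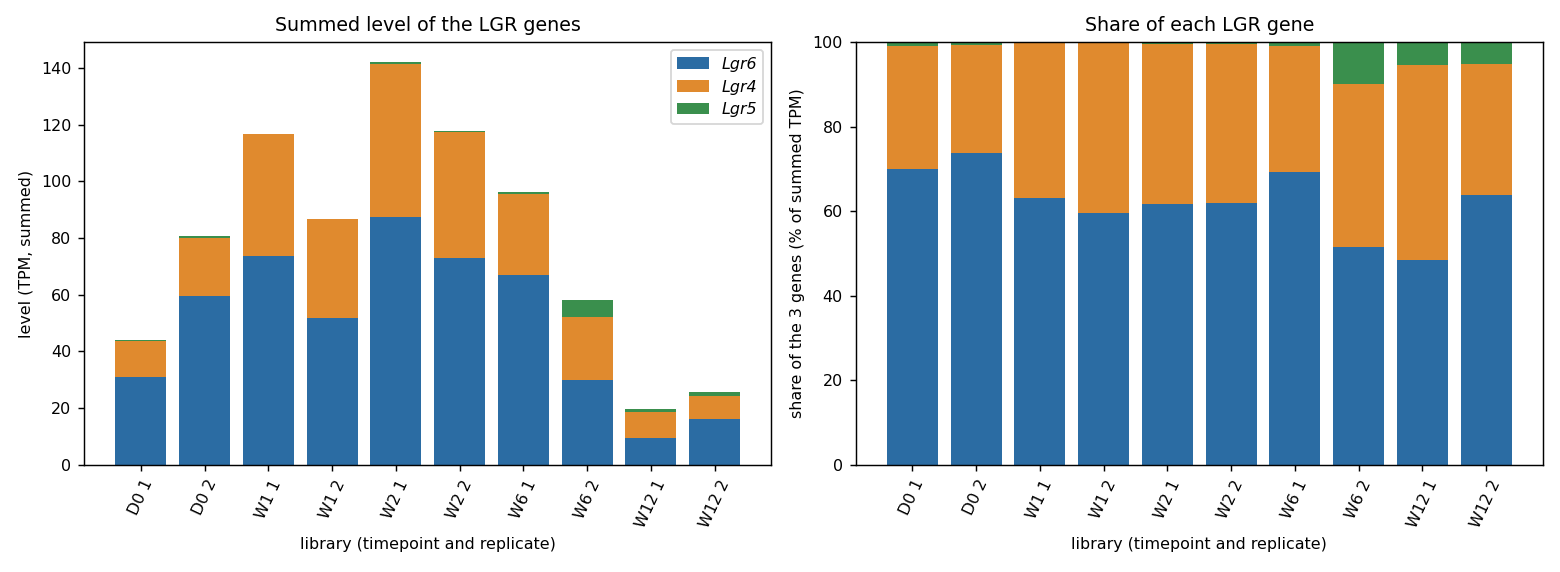
For each of the 10 libraries (horizontal axes), the levels of *Lgr6*, *Lgr4* and *Lgr5* stacked as TPM (left) and as a percentage of their sum (right). The summed level peaks at W2 (142 and 118 TPM) and is lowest at W12 (19.7 and 25.5 TPM), and the *Lgr5* share is visible in W6 replicate 2 (9.98%) and at W12.

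The 250 bases before the annotated start of *Lgr4*, *Lgr6* and *Axin2* are shown because these are the genes of the set with 1 promoter entry each, and all 3 had their lowest mean level at W12. They were taken from RefSeq on GRCm38.p6 in the direction of the gene. The lines give *Lgr4* at chr2:109917397-109917646 (plus strand), *Lgr6* at chr1:135105277-135105526 (minus strand) and *Axin2* at chr11:108920099-108920348 (plus strand).
Lgr4: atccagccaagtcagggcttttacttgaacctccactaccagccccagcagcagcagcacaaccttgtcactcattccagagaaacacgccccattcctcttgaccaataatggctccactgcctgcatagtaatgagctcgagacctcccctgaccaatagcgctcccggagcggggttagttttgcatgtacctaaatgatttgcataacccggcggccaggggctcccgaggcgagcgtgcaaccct
Lgr6: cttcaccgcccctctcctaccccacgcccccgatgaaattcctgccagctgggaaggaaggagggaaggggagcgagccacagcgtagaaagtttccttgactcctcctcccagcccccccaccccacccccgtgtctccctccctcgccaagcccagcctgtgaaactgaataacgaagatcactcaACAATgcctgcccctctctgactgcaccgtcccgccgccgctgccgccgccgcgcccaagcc
Axin2: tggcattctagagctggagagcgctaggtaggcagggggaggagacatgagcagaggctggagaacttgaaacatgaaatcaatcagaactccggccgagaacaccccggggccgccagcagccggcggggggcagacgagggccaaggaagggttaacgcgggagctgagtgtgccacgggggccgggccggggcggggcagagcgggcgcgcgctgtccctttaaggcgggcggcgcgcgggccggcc
Capitals mark the one match found to the letters ACAAT, the core of SOX motifs, in the *Lgr6* sequence at 62 to 58 bases before the start. These letters were searched on both strands and occur in 27.7% of 32851 promoters of the same length. Neither the TCF/LEF letters CTTTGAA or CTTTGAT, found in 7.48% of all promoters, nor the RUNX letters TGTGGT, found in 14.0%, occur in these windows. The GC content was 55.6% for *Lgr4*, 65.2% for *Lgr6* and 69.2% for *Axin2*, where the median of all promoters was 52.4%. Promoter entries were found for 4 of the 10 genes, the other being *Rnf43*, whose 2 entries, for different starts, are not printed and held none of these letters.

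*Lrp5* (chr19:3584828-3686564, minus strand) and *Lrp6* (chr6:134446476-134566965, minus strand) encode the co-receptors that bind AXIN once WNT is bound. *Lrp5* was listed at 4.56 and 6.27 TPM at D0, 9.62 and 9.96 TPM at W1, 7.74 and 7.89 TPM at W2, 5.79 and 4.12 TPM at W6, and 1.81 and 1.81 TPM at W12. *Lrp6* was listed at 10.5 and 10.9 TPM at D0, 17.5 and 19.1 TPM at W1, 15.3 and 14.2 TPM at W2, 10.7 and 9.43 TPM at W6, and 6.83 and 7.62 TPM at W12. For both genes the W1 and W2 libraries lay above both D0 libraries and the W12 libraries below them. Of all genes tested, 34.4% lay above D0 in this way at W1 and 35.1% at W2, and 41.9% lay below at W12. At W1 *Lrp6* was 1.65-fold higher than at D0 (log2 0.72 ± 0.16, adjusted p = 0.0234), and *Lrp5* did not pass (0.76 ± 0.21, adjusted p = 0.0587), although it did without either W6 library (adjusted p = 0.0339 and 0.0331).

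At W12 *Lrp5* was 2.26-fold lower than at D0 (log2 −1.18 ± 0.21, adjusted p = 0.00296; −0.62, 0.0295 with the correction for transcript length) and *Lrp6* 1.42-fold lower (−0.51 ± 0.16, adjusted p = 0.0309). *Lrp5* also fell by 1.07 from W6 to W12 on the log2 scale (adjusted p = 0.0114), a call lost without W12 replicate 1 (adjusted p = 0.0751) or replicate 2 (0.0561). *Lrp5* accounted for 30.3 and 36.6% of the summed co-receptor level at D0 and for 20.9 and 19.2% at W12, the lowest shares among the 10 libraries. The W12 change of *Lrp6* was not called after correction for transcript length (−0.10, adjusted p = 0.605), median-ratio scaling (−0.42, 0.0573) or quantile normalization (−0.34, 0.0953), nor without any 1 library of D0, W1, W2 or W12 (adjusted p between 0.0504 and 0.149). The W1 rise of *Lrp6* was lost without D0 replicate 2 (0.75, adjusted p = 0.0554), without W1 replicate 1 (0.78, 0.0907) or replicate 2 (0.66, 0.179), and without either W2 library (0.058 and 0.0575).

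*Dkk3* (chr7:112116017-112159057, minus strand) encodes a divergent member of the Dickkopf family of secreted proteins, whose better known members block LRP5 and LRP6. Its level was 4.64 and 16.0 TPM at D0, 82.9 and 84.0 TPM at W1, 73.4 and 55.3 TPM at W2, 27.9 and 24.8 TPM at W6, and 24.3 and 26.5 TPM at W12. Both D0 libraries were below every later library, and the D0 replicates themselves lay wide apart. *Dkk3* was 8.62-fold higher at W1 than at D0 (log2 3.11 ± 0.42, adjusted p = 0.00269), 6.61-fold higher at W2 (2.72, adjusted p = 0.00365), 2.79-fold higher at W6 (1.48, adjusted p = 0.0267) and 2.70-fold higher at W12 (1.43, adjusted p = 0.0232). The steps from W1 to W2, W2 to W6 and W6 to W12 did not pass the test (adjusted p = 0.721, 0.0738 and 0.949), while W6 was 3.09-fold lower than W1 (adjusted p = 0.0255). The calls at W6 and W12 were lost without W6 replicate 1 (1.40, adjusted p = 0.0909) or W6 replicate 2 (1.56, 0.0729) and without W12 replicate 1 (1.49, 0.0879) or W12 replicate 2 (1.37, 0.106) respectively, and without D0 replicate 1 the changes in order of time were 2.31, 1.93, 0.68 and 0.63, against 3.9, 3.52, 2.28 and 2.23 without D0 replicate 2.

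*Sfrp1* (chr8:23411502-23449632, plus strand), whose product binds WNT proteins and keeps them from their receptors, gave no call in any comparison. It was listed at 22.2 and 25.9 TPM at D0, 36.3 and 30.2 TPM at W1, 39.9 and 24.0 TPM at W2, 16.5 and 34.3 TPM at W6, and 24.7 and 24.5 TPM at W12. The W6 replicates lay on both sides of the D0 range and the W12 replicates inside it, and only at W1 were both libraries above it (log2 0.45 ± 0.33, adjusted p = 0.439). The F test gave an adjusted p of 0.553.

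*Axin2* (chr11:108920349-108950783, plus strand) encodes a scaffold of the complex that degrades β-catenin and overlaps the antisense gene *Gm11670*. Whether quantification used strand was not given in the sources used here. *Axin2* was listed at 6.61 and 12.1 TPM at D0, 11.4 and 11.8 TPM at W1, 8.77 and 9.0 TPM at W2, 2.54 and 4.61 TPM at W6, and 1.26 and 1.19 TPM at W12. The W1 and W2 libraries lay inside the D0 range, the W6 libraries below it and the W12 libraries below all others. *Axin2* was 2.25-fold lower at W6 than at D0 (log2 −1.17 ± 0.30, adjusted p = 0.0181) and 4.49-fold lower at W12 (−2.17 ± 0.30, adjusted p = 0.000778), and fell by 1.15 from W2 to W6 and by 1.00 from W6 to W12 on the log2 scale (adjusted p = 0.0356 and 0.0459). Of these, the W12 change from D0 kept its call without each library in turn.

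*Znrf3* (chr11:5276324-5444847, minus strand) and *Rnf43* (chr11:87662722-87735539, plus strand, overlapping *Gm25968* and *1110028F11Rik*) encode the ligases that LGR receptors act on. *Znrf3* was listed at 16.6 and 23.2 TPM at D0, 18.0 and 20.2 TPM at W1, 18.0 and 14.5 TPM at W2, 10.2 and 8.46 TPM at W6, and 5.65 and 4.57 TPM at W12. *Rnf43* was listed at 18.3 and 29.3 TPM at D0, 27.0 and 33.7 TPM at W1, 41.2 and 25.6 TPM at W2, 12.5 and 9.93 TPM at W6, and 5.41 and 7.05 TPM at W12. For both ligases the W1 and W2 libraries overlapped the D0 range, and all 4 libraries of W6 and W12 lay below it. *Znrf3* was 2.00-fold lower at W6 (log2 −1.0 ± 0.22, adjusted p = 0.00948) and 3.39-fold lower at W12 (−1.76 ± 0.22, adjusted p = 0.00045) than at D0, and *Rnf43* 1.99-fold lower at W6 (−0.99 ± 0.29, adjusted p = 0.0315) and 3.37-fold lower at W12 (−1.75 ± 0.29, adjusted p = 0.00202). *Rnf43* fell by 1.46 from W2 to W6 on the log2 scale (adjusted p = 0.0161), and *Znrf3* by 0.76 from W6 to W12 (adjusted p = 0.0397). The summed LGR level was 1.26 and 1.54 times the summed ligase level at D0, 2.60 and 1.61 times at W1, and 2.40 and 2.95 times at W2. It was 4.24 and 3.16 times that level at W6, and 1.78 and 2.20 times at W12. The ratio was thus above both D0 libraries in every later library, and it was not tested.

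The W6 calls of the feedback inhibitors depended on single libraries. Without D0 replicate 2, which had the higher level of all 3 genes, the W6 changes were −0.77 for *Axin2* (adjusted p = 0.11), −0.77 for *Znrf3* (0.057) and −0.67 for *Rnf43* (0.192), and none was called, while without D0 replicate 1 all 3 were called. Without W6 replicate 1 *Axin2* was not called at W6 (−0.84, 0.0786) and *Rnf43* was at −1.15 (0.0516), and without W6 replicate 2 *Rnf43* was at −0.84 (0.128). The *Rnf43* step from W2 to W6 was lost without W2 replicate 1 (−1.13, 0.129) or W6 replicate 2 (−1.31, 0.0695). The *Axin2* step from W2 to W6 was lost without any 1 library of W1, W2 or W12 or without W6 replicate 1 (adjusted p between 0.0618 and 0.167), its step from W6 to W12 without any 1 library of W1, W2 or W12 or without W6 replicate 2 (0.0745 to 0.178), and the *Znrf3* step from W6 to W12 without any 1 library of W1, W2 or W12 or without W6 replicate 1 (0.0645 to 0.188). Of the 6 basal keratinocyte markers, 5 were also lower at W6 (3 without W6 replicate 2) and 4 at W12, where 14.1% and 25.1% of all genes were. Of 7 suprabasal markers, 4 were higher at W6 (all genes 18.3%), and at W12 3 were higher (1 without W12 replicate 1) and 1 lower (all genes 17.9% and 25.1%), with *Krtdap* at 3314 and 647 TPM at D0, 10419 and 10171 TPM at W6, and 11060 and 9986 TPM at W12. Not all 7 rose, as *Lor* was at 15.4 and 19.4 TPM at D0 and 2.00 and 2.05 TPM at W12. *Krt10* was at 1335 and 871 TPM at D0, 568 and 966 TPM at W6, and 1041 and 700 TPM at W12. Of 6 markers of hair follicle stem cells, 1 was higher (*Cd34*) and 1 lower (*Krt15*) at W6, with a median log2 change of 0.35. At W12 *Cd34* was higher and *Krt15* and *Nfatc1* lower, with a median of −0.60. CD34 was selected against in the sort, and the endothelial markers also rose at W12 (57.0 and 124 TPM summed). Their relation to the *Cd34* level was not tested. Without W6 replicate 2, *Nfatc1* and *Tcf7l1* were also higher at W6, *Tcf7l1* was so without D0 replicate 2 and *Lhx2* lower at both timepoints without D0 replicate 1, while *Nfatc1* was not called at W12 without D0 replicate 2 or either W12 library. The part of these cell states in the changes of the feedback inhibitors was not tested.

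**Figure D4:**
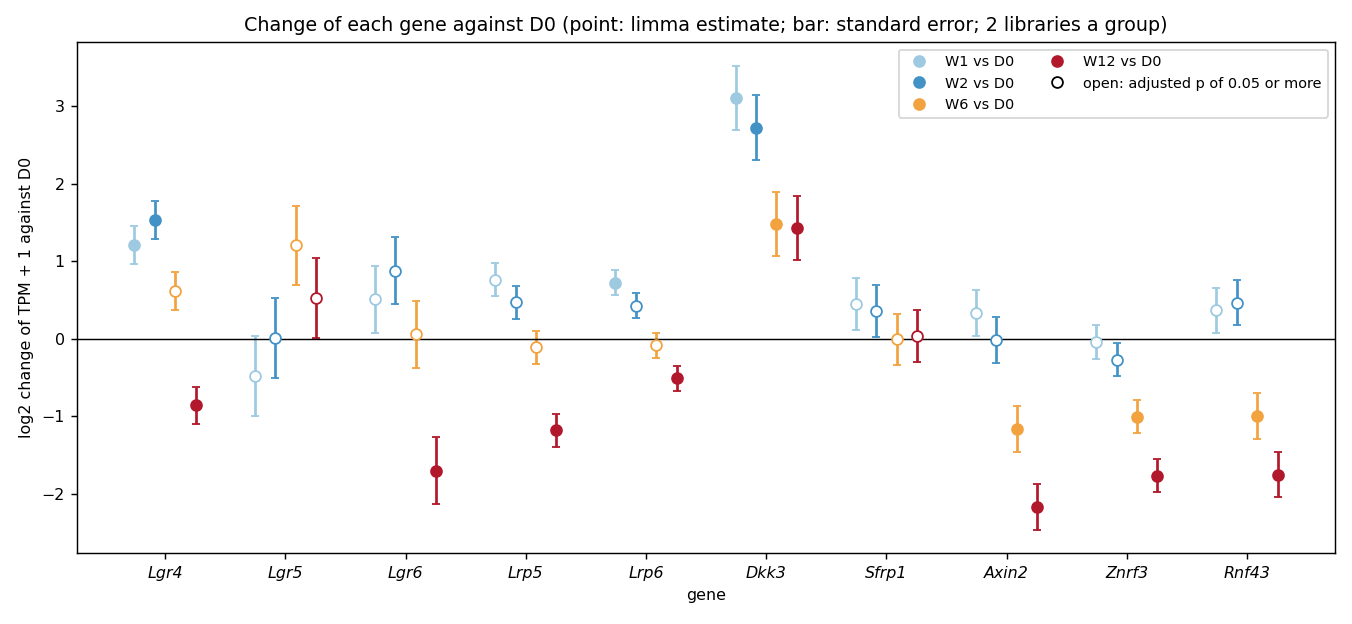
Log2 change of TPM + 1 against D0 (vertical axis) for each of the 10 genes (horizontal axis) at W1, W2, W6 and W12, as limma estimates with standard errors as bars, filled where the adjusted p was under 0.05. *Dkk3* is above 0 at all 4 timepoints, *Lgr4* changes from 1.54 at W2 to −0.86 at W12, and *Axin2*, *Znrf3* and *Rnf43* are near or below −1 at W6 and lower at W12.

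Set beside all genes tested, the shares were as follows. At W1, 3 of the 10 genes were higher than D0 and 0 lower, where 9.89% of all genes were called, 5.79% as higher and 4.10% as lower. At W2, 2 of 10 were higher and 0 lower, where 15.7% of all genes were called, 9.06% as higher and 6.64% as lower. The W2 count was therefore close to the background. The median log2 change of the 10 genes was 0.48 at W1 and 0.45 at W2, and that of all genes tested 0.09 and 0.06. Leaving out D0 replicate 2 and W6 replicate 2 together, an alternative chosen after the data had been seen, gave 5 called genes at W1 and 4 at W2, where 16.0% and 21.3% of all genes were then called. Without W1 replicate 1 or replicate 2 the W1 count was 1, *Dkk3*, where 4.65% and 2.88% of all genes were called.

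At W6, 1 of 10 was higher and 3 lower, where 32.4% of all genes were called, 18.3% as higher and 14.1% as lower. Without D0 replicate 2 these were 2 higher and 0 lower, the higher ones *Dkk3* and *Lgr4*. Without W6 replicate 1 they were 1 higher (*Lgr5*, on W6 replicate 2 alone) and 1 lower (*Znrf3*), and without W6 replicate 2 they were 0 higher and 2 lower (*Axin2* and *Znrf3*). The share of all genes called at W6 was 18.0%, 29.4% and 26.5% in these fits. At W12, 1 of 10 was higher and 7 lower, where 43.0% of all genes were called, 17.9% as higher and 25.1% as lower, and the median was −1.02 against −0.08 for all genes. Of the 10 genes, 7 had both W12 libraries below both D0 libraries, as had 41.9% of all genes. With a correction for transcript length, 5 of the 10 genes were called lower at W12, and without D0 replicate 2 or W12 replicate 1 there were 4, in each case *Axin2*, *Lrp5*, *Rnf43* and *Znrf3*. Without W12 replicate 2 there were 5 lower, these and *Lgr6*, and without either W12 library 0 were higher. Of all genes, 41.9% were called at W12 with the length correction and between 25.6 and 28.5% without D0 replicate 2 or either W12 library. The endothelial markers and *Cd74* were highest at W12, and the immediate-early sum at D0. The endothelial sum was 57.0 and 124 TPM at W12, with *Pecam1*, which encodes the CD31 of the sort, at 26.1 and 59.8 TPM. *Dcn* and *Xist* were present at W12 too, but *Dcn* was highest in W6 replicate 2 (51.2 TPM). *Xist* was also at 4.61 TPM in D0 replicate 2. Their part in the W12 and D0 differences was not tested.

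Between neighbouring timepoints, 0 of the 10 genes differed between W1 and W2 by limma at an adjusted p under 0.05, and 0 at an unadjusted p under 0.05, where 0.114% and 14.5% of all genes did. From W2 to W6, 3 of 10 fell and 0 rose, where 16.3% of all genes were called, 7.99% as higher and 8.31% as lower, and without W2 replicate 1 there were 0. That count was 1 without W2 replicate 2, W6 replicate 2 or any 1 library of W1 or W12, and 6 without either D0 library. The share of all genes called moved in the same direction, to 1.58% without W2 replicate 1, 2.52% without W2 replicate 2, between 8.96 and 9.56% without the other libraries named, and 24.2% without either D0 library. From W6 to W12, 5 of 10 fell (*Lgr4*, *Lgr6*, *Lrp5*, *Axin2* and *Znrf3*) and 0 rose, where 20.2% of all genes were called, 6.66% as higher and 13.5% as lower. Median-ratio scaling, quantile normalization and the correction for transcript length moved the median of all genes between W6 and W12 up by 0.15, 0.10 and 0.18 on the log2 scale, and 3 of the 10 genes were called as lower with median-ratio scaling or the length correction. There were also 3 without any 1 library of W1 or W2, in each case *Lgr4*, *Lgr6* and *Lrp5*, and 1, *Lgr4*, without either W12 library. Of all genes, 16.2% and 16.8% were called with median-ratio scaling and the length correction, 13.8 to 15.1% without a W1 or W2 library, 5.80% without W12 replicate 1 and 9.80% without W12 replicate 2. These comparisons share libraries with those against D0 and are not independent of them.

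Of the other surface receptors, the Frizzled family and the co-receptors ROR, RYK and PTK7, 11 of 14 passed the filter. At W2, 4 were higher than at D0 and 0 lower, where 9.06% and 6.64% of all genes were, and the median of the 11 on the log2 scale was 0.34. *Fzd7* went from 8.10 and 6.64 TPM at D0 to 60.0 and 52.1 TPM at W2 (log2 2.77 ± 0.21, adjusted p = 0.000151), *Fzd1* rose by 1.33 (adjusted p = 0.00396) and *Ryk*, an atypical kinase that binds WNT, by 0.92 (adjusted p = 0.00215). At W12, 0 were higher and 7 lower, where 17.9% and 25.1% of all genes were, with a median of −0.61, led by *Fzd10* (31.6 and 49.4 TPM at D0, 7.28 and 5.24 TPM at W12, log2 −2.50, adjusted p = 0.000184), *Ptk7*, which acts in planar polarity (−2.47, adjusted p = 0.00144), and *Ror1*, a receptor of WNT5A (−1.47, adjusted p = 0.0028). With the correction for transcript length, 1 was higher and 5 lower at W12, and without W12 replicate 1 there were 4 lower, where 41.9% and 25.6% of all genes were called.

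Among the R-spondins, the ligands of the LGR receptors, 0 of 4 passed the filter. *Rspo3* was listed at 1.31 and 6.99 TPM at D0, at no more than 0.135 TPM from W1 to W6 and at 0.65 and 0.70 TPM at W12. The D0 libraries thus held the highest *Rspo3* levels, and it was not tested. The other 3 were at or below 0.132 TPM in every library.

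Of 17 other secreted or surface inhibitors, 8 passed the filter. At W2, 3 were higher and 0 lower (all genes 9.06% and 6.64%): *Sostdc1*, which encodes an inhibitor of BMP and WNT signalling (316 and 154 TPM at D0, 1692 and 1205 TPM at W2, log2 2.69 ± 0.35, adjusted p = 0.00175), *Dkkl1* (2.11, adjusted p = 0.00204) and *Shisa2*, whose product holds Frizzled receptors in the cell (1.12, adjusted p = 0.0322). At W12, where 17.9% of all genes were higher and 25.1% lower, 3 were higher, *Wif1* (log2 3.83 ± 1.01, adjusted p = 0.0158), *Dkkl1* (2.57, adjusted p = 0.00027) and *Shisa2* (1.83, adjusted p = 0.00151), and 3 lower, the membrane inhibitor *Apcdd1* (−2.78, adjusted p = 0.000865) and the DKK receptors *Kremen1* (−2.07, adjusted p = 0.000511) and *Kremen2* (−1.65, adjusted p = 0.0106). *Wif1* was at most 1.03 TPM in the other libraries before W12 except W6 replicate 2 and at 13.8 and 20.1 TPM at W12. Its rise was not called without any 1 library of D0 or W12, nor was the fall of *Kremen2* without W12 replicate 1.

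Of 14 genes of cytoplasmic WNT transduction, 13 passed the filter. At W2, 4 were higher and 0 lower, against 9.06% and 6.64% of all genes, led by *Nkd2*, which encodes a Dishevelled-binding inhibitor (0.40 and 0.21 TPM at D0, 24.7 and 14.1 TPM at W2, log2 3.92 ± 0.42, adjusted p = 0.00069), then *Ctnnbip1*, an inhibitor of β-catenin binding to TCF (0.81, adjusted p = 0.0181), and *Amer1*, a component of the degradation complex (0.73, adjusted p = 0.0422). At W12, *Nkd2* was again higher (4.30, adjusted p = 0.000132) and 8 genes were lower, against 17.9% and 25.1% of all genes, led by *Dvl3* (−1.40, adjusted p = 0.00201), *Gsk3a* (−1.29, adjusted p = 0.00255) and *Dvl2* (−1.25, adjusted p = 0.00333), which encode 2 Dishevelled proteins and a kinase of the degradation complex. Without D0 replicate 2, W2 replicate 1 or W2 replicate 2 fewer of these genes were called at W2, and so were fewer of all genes.

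Of 12 TCF/LEF factors and partners, 11 passed the filter. At W2, where 9.06% of all genes were higher and 6.64% lower, 3 were higher, *Tcf7l1* (log2 2.13 ± 0.53, adjusted p = 0.0283), the co-repressor *Tle1* (2.07, adjusted p = 0.00215) and *Tcf7l2* (0.81, adjusted p = 0.0488), and 1 was lower, the co-repressor *Tle4* (−1.19, adjusted p = 0.00804). At W12, *Tle1* was higher (1.28, adjusted p = 0.00723) and 6 were lower (all genes 17.9% and 25.1%), led by *Tle4* (−2.12, adjusted p = 0.00017), *Tle3* (−2.10, adjusted p = 0.00258) and *Bcl9l*, which encodes a β-catenin co-activator (−1.84, adjusted p = 0.00334). The genes called thus included repressors and activators. At W2, *Tle1* alone was called as higher without D0 replicate 1, either W2 library or either W12 library, and at W12 it was not called without D0 replicate 2 or W12 replicate 2.

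Of 13 WNT target genes, some of them also in the groups above, 7 passed the filter. At W2, 1 was higher and 2 lower (all genes 9.06% and 6.64%), and at W12, 1 was higher and 3 lower (17.9% and 25.1%). *Cd44* was higher at W2 and at W12 (log2 0.57 and 0.79, adjusted p = 0.0281 and 0.00282). *Tnfrsf19* and *Ascl2* were lower at W2 (−2.0 and −1.23, adjusted p = 0.00127 and 0.0268), and *Myc* (697 and 1161 TPM at D0, 82.8 and 131 TPM at W12), *Tnfrsf19* and *Ascl2* at W12 (−3.10, −1.97 and −1.96, adjusted p = 0.00118, 0.000455 and 0.00132). At W2, *Tnfrsf19* alone was called without D0 replicate 2 or either W2 library, 0 were higher and 3 lower without either W1 library, and 2 were higher and 3 lower without either W6 library. The share of all genes called at W2 changed in these fits too. The D0 libraries, which held the highest *Myc*, also held the highest immediate-early sum, and its part was not tested.

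**Figure D5:**
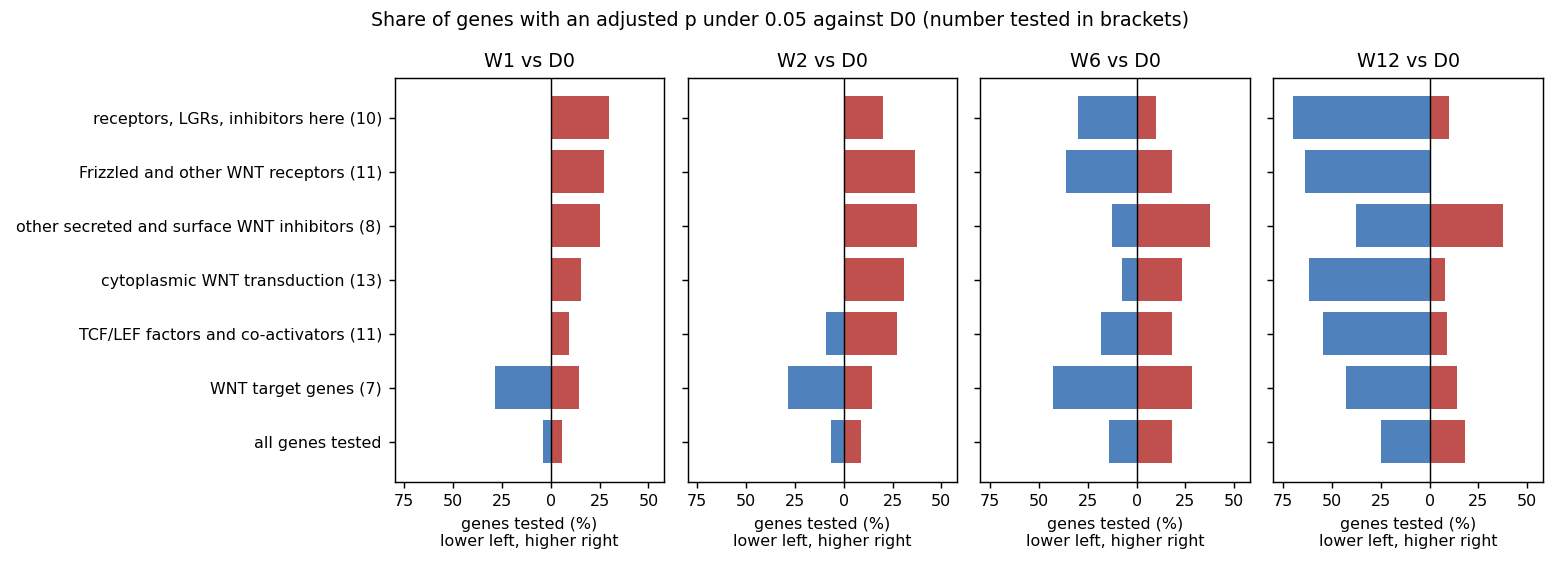
Percentage of the genes tested in each group (number in brackets) that were called higher (right, red) or lower (left, blue) than D0 at an adjusted p under 0.05, at W1, W2, W6 and W12, with all genes tested in the bottom row. At W12, 7 of the 10 receptors, LGRs and inhibitors and 7 of 11 Frizzled and other receptors are lower, where 25.1% of all genes are.

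The genes outside the 10 whose log2(TPM + 1) was most like that of a member over the 10 libraries were found by Pearson's r, as a description of points that share timepoints and libraries. For *Lgr4* they were *Nfatc1*, a transcription factor of hair follicle stem cells (r = 0.986, means of 24.5 TPM at D0, 67.2 TPM at W2 and 12.9 TPM at W12), *Ube2r2* (0.981) and *Efnb1* (0.980), and for *Lgr6* *Rhbdf2* (0.991), *Zkscan17* (0.988) and *Dcaf7* (0.987). For *Dkk3* they were *Ccn2*, a matricellular gene (r = 0.960, means of 11.3 TPM at D0 and 278 TPM at W1), *Ccser2* (0.944) and *Kctd14* (0.938). For *Axin2* they were *Ism1* (0.990), *Zfp318* (0.989) and the keratin gene *Krt80* (0.989, means of 234 TPM at D0 and 14.0 TPM at W12). For *Lgr5* they were *Wwp1* (0.960), *BC006965* (0.959) and *Cep135* (0.947), of which *BC006965* went from a mean of 0.118 TPM at D0 to 7.56 TPM at W6. Since *Lgr5* was high in W6 replicate 2 alone (5.80 TPM against 0.77 TPM in replicate 1), these r values lean on that library. Among the 10 genes themselves, r was 0.955 for *Lrp5* with *Lrp6*, 0.953 for *Axin2* with *Znrf3*, 0.939 for *Znrf3* with *Rnf43* and 0.910 for *Lgr4* with *Lgr6*. It was 0.529 for *Dkk3* with *Sfrp1*. Across roles, r was 0.919 for *Lrp5* with *Lgr6*, 0.912 with *Lgr4*, 0.912 with *Rnf43* and 0.895 with *Axin2*. *Lgr5* had r between −0.592 and 0.0933 with the other genes.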

How the data were processed

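RNA-seq of 10 libraries of sorted EpdSCs was used, grouped by the sample labels as D0, W1, W2, W6 and W12 with 2 replicates each. Per the study's methods and the labels, the authors trimmed reads with Skewer, quantified transcripts with Salmon 1.4.0 against a GENCODE index of GRCm38 that held the *Sox9* transgene as an entry of its own, summed them to genes with Tximport and deposited TPM per gene. Each library sums to 1000000 TPM, which keeps no read depth, so no counting error or smallest detectable level is given. The 4 placode libraries entered only a deposited table of the authors' own comparison and were not used. Replicates with the same number at different timepoints came from separate samples.

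The 13110 genes averaging 1 TPM or more were tested on log2(TPM + 1), a scale that understates changes of low genes. limma 3.58.1 in R 4.3.3 fitted the 5 timepoint means over all 10 libraries with eBayes and a variance trend, with two-sided p-values and the Benjamini-Hochberg adjustment across these 13110 genes, and a change was called at an adjusted p under 0.05. The study tested counts with another tool, which TPM do not permit. The p-values measure the spread between libraries labelled as replicates. The fit was also run on simulated data of the same size, with an outcome that is not given here.

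The 10 genes, the pathway groups and the marker lists were chosen with earlier results of these data known. The text names the 10 genes, the 3 largest called rises and falls of each group at W2 and W12, the 3 genes most like *Lgr4*, *Lgr5*, *Lgr6*, *Dkk3* and *Axin2*, and markers used as checks, and genes of counts of 5 or fewer may be named too. *Notum* and *BC006965* were described after their values were seen. Gene positions are from GENCODE M21 on GRCm38 and promoters from RefSeq on GRCm38.p6.

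The alternatives were a pseudocount of 0.1, no filter, a filter at a mean of 5 TPM, a correction for transcript length, quantile normalization, median-ratio scaling, no variance trend in eBayes, fitting only the libraries compared, an absolute log2 change of at least 1, a replicate block, and each library left out in turn, where the remaining library of that timepoint was assumed to vary like the others. Leaving out D0 replicate 2 and W6 replicate 2 together was added after the data had been seen. Shares, correlations and promoter matches were computed in Python 3.11.15 with pandas 2.3.3, and figures drawn with matplotlib 3.10.9.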

Additional observations from a re-analysis of the deposited data

How the results depend on the processing

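Of the 25 changes called for single genes, 6 were called under all 20 alternatives other than the minimum log2 change of 1, which these 6 also met, 19 lost the call under at least 1, and 0 changed sign. The settings with the most losses were a fit of only the libraries compared, which has fewer libraries (18 calls), no filter on TPM (13), and leaving out W12 replicate 1 (10) or replicate 2 (9). The number of genes called against D0 was 3 for W1, then 2, 4 and 8 for the later timepoints, and between neighbours 0, 3 and 5 from W1 onwards. With only the libraries compared they were 0 at W1, 1 at W2 and 0 at W6 but 5 at W12, with 1 from W2 to W6 and 1 from W6 to W12, where 3.14, 8.28, 8.34, 30.1, 7.37 and 6.77% of all genes were called. With no filter they were 1 at W6, 5 at W12, 0 from W2 to W6 and 2 from W6 to W12, where 7.96, 13.6, 2.41 and 6.22% of all 38965 genes then tested were called. From W6 to W12, median-ratio scaling and the correction for transcript length each gave 3. Without D0 replicate 2 and W6 replicate 2 together there were 5 at W1 and 4 at W2. Leaving out each library in turn gave 1 to 4 genes at W1, 2 at W2, 2 to 4 at W6, 4 to 8 at W12, 0 between W1 and W2, 0 to 6 from W2 to W6, 1 to 5 from W6 to W12 and 7 to 9 by the F test. The share of all genes called changed in these fits as well, so the counts do not describe these 10 genes alone. Except where given, the cause was not tested.

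Replicate numbers did not pair the libraries: deviations of same-numbered libraries had correlations from −0.129 to 0.182. A fit with the replicate number as a block called 3 genes at W1, 2 at W2, 4 at W6, 8 at W12, 0 between W1 and W2, 2 from W2 to W6, 4 from W6 to W12 and 8 by the F test. Of all genes, 8.06, 13.0, 28.7, 40.1, 0.0458, 10.6 and 16.5% were then called in these comparisons, the F test aside. Under the block *Lgr4* from W2 to W6 (−0.92, adjusted p = 0.0566) and *Znrf3* from W6 to W12 (−0.76, adjusted p = 0.0612) were not called.

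Over all genes tested, the change from D0 to W12 had a Spearman correlation of −0.308 with transcript length. The share of called genes that were higher was 58.6% at W1, 41.7% at W12 and 33.0% between W6 and W12. It became 47.4% at W1 and 55.0% between W6 and W12 with median-ratio scaling, 45.8% between W6 and W12 with quantile normalization, and 47.2% at W1, 52.2% at W12 and 56.6% between W6 and W12 with the length correction. That correction also moved the median of all genes by −0.10 at W1 and 0.10 at W12 on the log2 scale.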

Other observations

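Besides *Lgr5*, *Wif1* and *Notum*, W6 replicate 2 held 114 TPM of *Nkd2* against 49.9 TPM in W6 replicate 1. *Fzd4*, a Frizzled gene below the filter, was listed at 0.94 and 1.54 TPM at W12 and at no more than 0.124 TPM in each earlier library. *Cd34*, whose product was selected against in the sort, was listed at 16.5 and 32.0 TPM at W12 and at 2.66 and 5.04 TPM at W6, against at most 0.383 TPM in the D0, W1 and W2 libraries. At W12 the endothelial marker sum was also high (57.0 and 124 TPM), and its relation to *Fzd4* and *Cd34* was not tested. The genes of this section were chosen after their values were seen.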
